A study of Bos taurus with 10 samples.

Results

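Linker histones are the H1 proteins that bind the nucleosome where DNA enters and leaves it, and that help to fold the chromatin fibre. The table of expression values held 8 of them under the symbols H1FOO, H1F0, H1FX, HIST1H1A, HIST1H1B, HIST1H1C, HIST1H1D and H1FNT. They were taken by symbol, 8 of the 28781 distinct symbols in the table, and each had 1 line. All 8 passed the filter for testing, which asked for a mean of at least 1 FPKM (fragments scaled to the length of the gene and to the mapped total of the library) over all libraries. A further linker histone symbol, HIST1H1E, stood on several lines and was described without a test, and HILS1, the linker histone-like protein of spermatids, reached at most 0.246 FPKM in any library.

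Bovine (Bos taurus) embryos received small interfering RNA as zygotes, either against H1FOO (knockdown, KD) or a negative control (NC). Messenger RNA was selected on oligo(dT) beads and sequenced at 2 stages. The 8/16-cell embryos were taken on day 4 after insemination (2 control and 2 knockdown libraries), and the morulae on day 5.5 (3 libraries of each). The labels give no genotype or breed, and neither how many embryos a library holds nor whether the libraries of a group came from separate collections, so the tests below measure the spread between these libraries, which may be technical. The question behind the series is what this histone does in the early bovine embryo.

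H1FOO is the linker histone of the oocyte, made during oocyte growth and inherited by the zygote. H1F0, H1FX and H1FOO are single genes outside the histone clusters with polyadenylated transcripts. HIST1H1A, HIST1H1B, HIST1H1C and HIST1H1D belong to the replication-dependent histone genes, whose messages are made in S phase and mostly end in a stem-loop without a poly(A) tail. Mammalian embryos are known to replace the oocyte form by these somatic forms as the embryonic genome is switched on, which in cattle takes place at about the 8/16-cell stage. H1FNT is known from spermatids.

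FPKM values summed to between 345464 and 669836 in a library, with 11103 to 11872 genes at 1 FPKM or above. All 10 markers of the embryo were measured in every group, with sums of 633 to 1333 FPKM per library. RN18S1, an 18S ribosomal RNA that carries no poly(A) tail, stood at 3383 and 9367 FPKM in the control and at 5640 and 5098 FPKM in the knockdown 8/16-cell libraries, at 2704, 2983 and 8611 FPKM in the control morulae and at 9053, 8553 and 11581 FPKM in the knockdown morulae. It is given again beside the results it moved with. No counts were used, so the depth is unknown. The columns of the 2 stages carried symbols with several loci in different ways and were probably made apart, and differences between stages include any difference in how they were made. Levels are shares of a library, so that fewer cells of a type and less RNA per cell cannot be told apart.

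H1FOO, the target of the injected RNA, was abundant only in the control 8/16-cell libraries, at 50.8 and 10.8 FPKM. The knockdown 8/16-cell libraries held 0.649 and 0.0736 FPKM. The control morulae held 0.294, 1.05 and 2.17 FPKM, and the knockdown morulae 0.0610, 0.191 and 0.251 FPKM. Within each stage every KD library lay under every NC library. The 2 control 8/16-cell libraries differed from each other by 4.71 times and the 2 knockdown libraries by 8.82 times. For the other 7 linker histones the same libraries differed by 1.03 to 1.71 times in control and by 1.05 to 2.18 times in knockdown embryos.

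**Figure D1:**
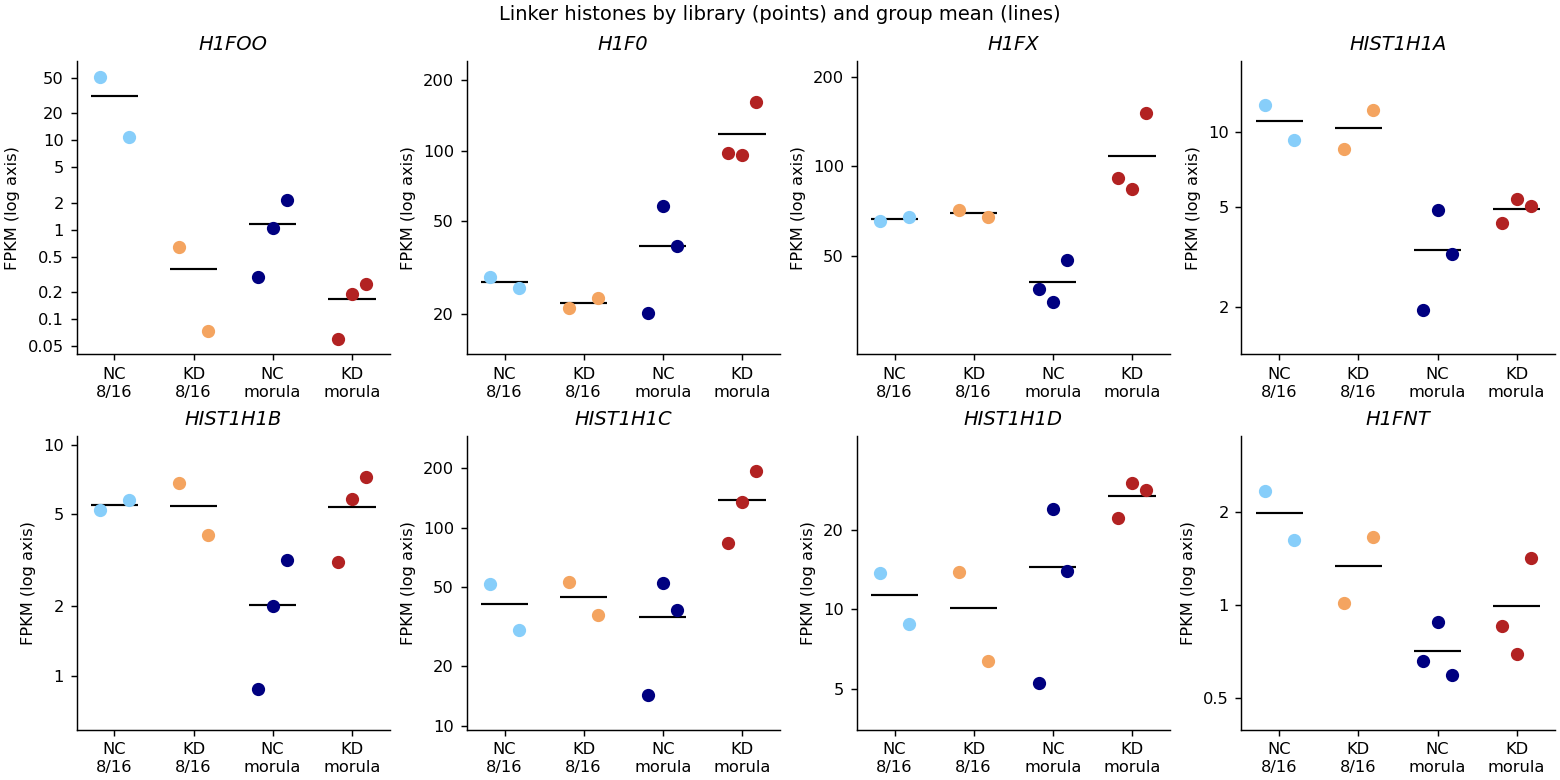
Expression of the 8 linker histones in FPKM on logarithmic axes, each panel with its own range. Points are the 10 libraries in replicate order and lines are group means; H1FOO stands at 50.8 and 10.8 FPKM in control 8/16-cell embryos and at 2.17 FPKM or less in all other groups, while the 3 knockdown morulae lie highest for H1F0, H1FX and HIST1H1C.

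At the 8/16-cell stage the mean of H1FOO was 85.3 times lower in knockdown (0.361 ± 0.407 FPKM, SD, n = 2) than in control embryos (30.8 ± 28.3 FPKM, SD, n = 2). The difference of log2(FPKM + 1) was -4.22 (SE 0.60), and limma's test gave an unadjusted p of 2.66e-05 and, after Benjamini-Hochberg adjustment across the 11761 genes tested, 0.104. It did not pass the threshold of 0.05, which 0.017% of all genes tested passed at this stage, with 4.37% at an unadjusted p under 0.05. The adjusted p was 0.00353 without NC 8/16-cell replicate 2, the control library with less H1FOO, and 0.377 without NC 8/16-cell replicate 1; the differences were then -5.28 and -3.15. It was 0.0124 with libraries rescaled to an equal sum and 0.0107 with the replicate number as a block, although the numbers were not found to pair the libraries of this stage.

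The low H1FOO values may rest on very few fragments. Low FPKM values of a library are multiples of a small step, which gave the depth of each library relative to KD morula replicate 1, where H1FOO had its smallest value. After this scaling H1FOO stood at 578 and 109 times that value in the control and at 8.20 and 1.02 times in the knockdown 8/16-cell libraries. The multiples were 2.95, 9.86 and 12.4 in the control morulae, and 1.97 and 2.03 in KD morula replicates 2 and 3. The chosen depth of a library was held by 1.25 (NC morula replicate 3) to 1.82 times as many genes as the next best depth. The next best was always higher and would raise these multiples, in KD morula replicate 3 with a depth of 0.986 in place of 0.493. All multiples are thus uncertain, that of NC morula replicate 3 the most. If the smallest value is 1 fragment and the chosen depths are right, neither of which is known, 4 of the 5 knockdown libraries hold 1 or 2 fragments of H1FOO. Their order is then not resolved, while KD 8/16-cell replicate 1 holds about 8.

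H1FOO fell between the stages in control embryos. Its log2 difference from the control 8/16-cell libraries to the control morulae was -3.61 (SE 0.55, limma adjusted p 0.00154), and it passed in all 22 alternative analyses. In knockdown embryos, where it was already low at the 8/16-cell stage, the corresponding difference was -0.19 (SE 0.55, adjusted p 0.832). Between control and knockdown morulae the difference was -0.80 (SE 0.49, adjusted p 0.374), with a 95% interval from -1.89 to 0.28. The difference between the knockdown effects of the 2 stages was 3.41 (SE 0.78, adjusted p 0.435); of 22 alternatives it passed in 1, the replicate block (0.0499), where 0.272% of all genes passed.

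At the 8/16-cell stage none of the other 7 linker histones was told apart between knockdown and control embryos. H1FX was the most abundant linker histone in all 4 libraries of this stage, at 65.6 and 67.5 FPKM in control and 71.2 and 67.6 FPKM in knockdown embryos. Its log2 difference was 0.06, with a 95% interval from -0.54 to 0.66. HIST1H1C came next, at 52.1 and 30.6 FPKM in control and 53.3 and 36.0 FPKM in knockdown libraries, with a difference of 0.13 and an interval from -1.08 to 1.34. H1F0, the replacement linker histone of cells that leave the cycle, stood at 28.8 and 26.0 FPKM in control and at 21.3 and 23.4 FPKM in knockdown libraries. Its knockdown libraries both lay under the control libraries, but the difference of -0.28 (interval from -1.17 to 0.61, adjusted p 1) did not pass. The groups did not overlap for H1FOO, H1F0 and H1FX, nor for 33.2% of all genes tested.

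The lesser linker histones at the 8/16-cell stage overlapped between the treatments. HIST1H1A, also called H1.1, stood at 12.8 and 9.27 FPKM in control and at 8.57 and 12.2 FPKM in knockdown embryos, and HIST1H1B (H1.5) at 5.22 and 5.74 FPKM in control and at 6.82 and 4.09 FPKM in knockdown embryos. HIST1H1D (H1.3) held 13.8 and 8.79 FPKM in control and 13.8 and 6.35 FPKM in knockdown libraries. H1FNT was the lowest of these 7 genes in every library of the stage, at 2.35 and 1.63 FPKM in control and at 1.02 and 1.67 FPKM in knockdown embryos. The 4 log2 differences lay between -0.36 and -0.04, and the median over the 7 genes was -0.08, beside 0.01 over all genes tested. The 95% intervals of the 7 genes reached from -1.40, for HIST1H1D, to 1.34, for HIST1H1C.

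At the morula stage H1FX rose in knockdown embryos, and H1F0 and HIST1H1C were higher in all 3 knockdown libraries than in any NC library. H1FX, a linker histone of most somatic cells, held 38.5, 34.8 and 48.4 FPKM in the control morulae and 91.4, 83.6 and 151 FPKM in the knockdown morulae, with means of 40.6 ± 7.01 and 109 ± 36.8 FPKM (SD, n = 3). The log2 difference was 1.36 (SE 0.22), with an adjusted p of 0.0374 in limma's test. It was 1 of 8 linker histones to pass in the direction of higher expression, where 0.145% of all genes tested passed. The call was kept in 9 of 22 alternatives and lost in 13. These included each of the 9 that left out any 1 library other than KD morula replicate 1. With 1 library left out the difference ran from 1.10 to 1.52. The call was also lost in the fit of the morulae alone (limma adjusted p 0.151) and with RN18S1 as a covariate (0.33, with the difference at 1.09). In both of these fits 0 of all genes passed.

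H1F0 stood at 20.2, 57.9 and 39.3 FPKM in the control morulae and at 98.1, 95.5 and 161 FPKM in the knockdown morulae. The lowest KD library lay above the highest NC library, with a log2 difference of 1.65 (SE 0.33) that missed the threshold (adjusted p 0.056). HIST1H1C (H1.2) showed the greatest difference of the 8 genes on the log2(FPKM + 1) scale, from 14.3, 52.6 and 38.6 FPKM in control to 84.0, 135 and 193 FPKM in knockdown morulae. Its log2 difference of 2.04 (SE 0.45) did not pass either (adjusted p 0.0617). As a ratio of mean FPKM, HIST1H1C was 3.90 times higher, and H1FOO, at about 1 FPKM and less, 6.98 times lower in knockdown morulae. For H1F0, H1FX and HIST1H1C the knockdown libraries lay above all control libraries, which held for 8.44% of all genes tested, and for H1FOO they lay under them (15.3% of all genes).

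The other replication-dependent genes overlapped between the treatments. HIST1H1B held 0.881, 2.01 and 3.17 FPKM in the control and 3.10, 5.81 and 7.25 FPKM in the knockdown morulae, a log2 difference of 1.09 (SE 0.34, adjusted p 0.11). HIST1H1D held 5.26, 24.0 and 14.0 FPKM in the control and 22.2, 30.0 and 28.1 FPKM in the knockdown morulae, a difference of 1.05 (SE 0.44, adjusted p 0.207). HIST1H1A, at 1.93, 4.89 and 3.25 FPKM in control and 4.34, 5.39 and 5.06 FPKM in knockdown morulae, differed by 0.50 (SE 0.26, adjusted p 0.301). H1FNT, at 0.660, 0.886 and 0.594 FPKM in control and 0.860, 0.698 and 1.42 FPKM in knockdown morulae, differed by 0.20 (SE 0.23, adjusted p 0.65). NC morula replicate 1 was the lowest of the 6 morula libraries for 5 of the 8 genes, H1F0 and the 4 replication-dependent ones.

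**Figure D2:**
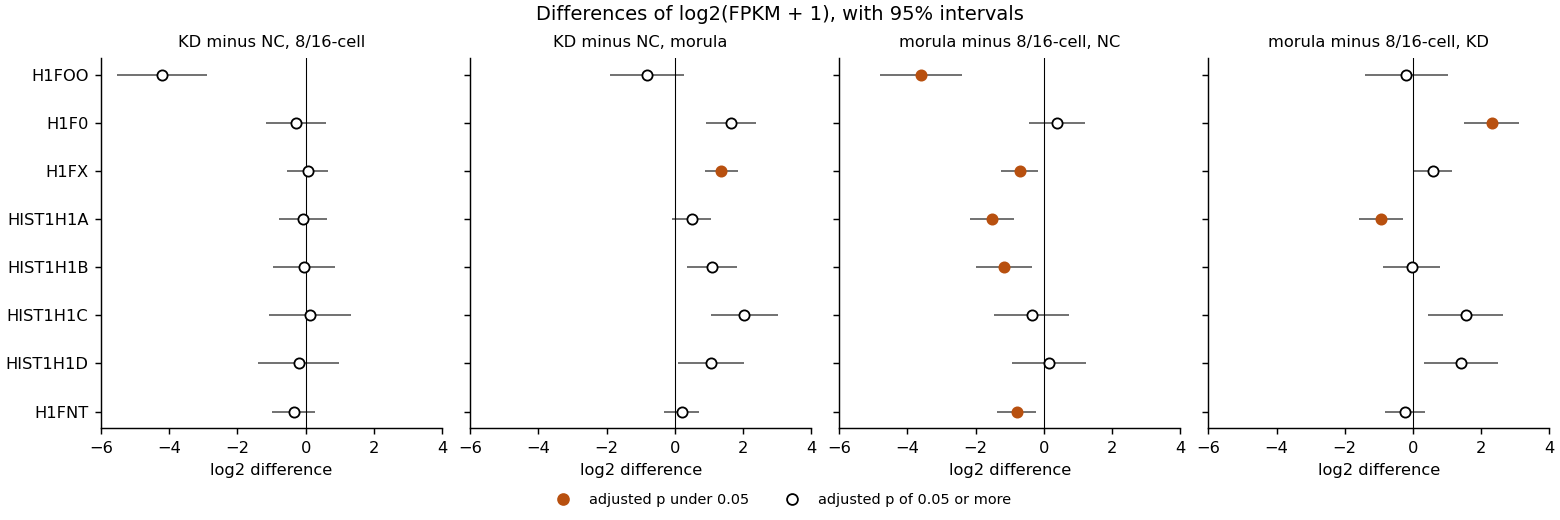
Log2 differences of the 8 linker histones in 4 comparisons, on the log2(FPKM + 1) scale, with 95% intervals from the limma fit as lines. Filled points passed at an adjusted p under 0.05: H1FX between the treatments at the morula stage (1.36), 5 genes between the stages in control embryos, and H1F0 (2.31) and HIST1H1A (-0.93) between the stages in knockdown embryos.

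Same-numbered control and knockdown morula libraries deviated together across all genes. The labels state no pairing, so it was inferred from the same data that were then tested, and the blocked p-values depend on it. With the number as a block 5 of the 8 genes passed, where 3.89% of all genes passed in the direction of higher expression. They were H1FX and HIST1H1C (adjusted p 0.0029 for both), H1F0 (0.00765), HIST1H1B (0.0125) and HIST1H1D (0.0365). The estimates were those given above. All 7 genes other than H1FOO had a positive difference, with a median of 1.09, beside a median of -0.08 and 42% positive differences over all genes tested. HIST1H1A, HIST1H1B, HIST1H1C and HIST1H1D are alike enough in sequence to share reads, and so the split among them is uncertain.

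HIST1H1E (H1.4) stood on 64 lines of the table, which in the morula columns combine 2 loci. The morula values of these loci were 1.21 and 3.80, 4.74 and 5.20, and 1.58 and 3.47 FPKM in the control libraries. They were 3.94 and 10.2, 7.20 and 9.19, and 7.86 and 9.91 FPKM in the knockdown libraries. Within knockdown morulae the higher of the 2 values exceeded both values of every control morula. The lower value of KD morula replicate 1 (3.94 FPKM) lay under both values of NC morula replicate 2. Values were ordered by size within a library, so the higher ones need not be of the same locus. Among the genes tested, 8.44% had all knockdown morulae above all control morulae. The 8/16-cell columns repeat 1 value, 3.54 and 6.81 FPKM in control and 5.57 and 1.85 FPKM in knockdown embryos, and these overlap.

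The RN18S1 values moved with these differences in part, with a log2 difference of 1.23 between knockdown and control morulae (SE 0.50, adjusted p 0.194, blocked 0.0386). NC morula replicate 3 and KD morula replicate 2 had nearly the same RN18S1 level, 8611 and 8553 FPKM, and their summed levels of the 7 linker histones other than H1FOO were 147 and 356 FPKM. NC 8/16-cell replicate 2 had 9367 FPKM of RN18S1 and a sum of 149.6 FPKM. These libraries were picked for their like RN18S1 levels. The sum includes the polyadenylated H1F0 and H1FX, and so it does not measure how HIST1H1 messages were captured. RN18S1, TERC, RN7SL1 and RMRP, the 4 RNAs without a long poly(A) tail that were tested, all had positive differences at the morula stage (median 0.94). Over all genes 42% were positive. The difference of RMRP (0.24) rested on KD morula replicate 1 alone (0.658 FPKM), with 0 FPKM in every other morula library. RMRP passed the filter for testing only through KD 8/16-cell replicate 1, at 11.7 FPKM. Of the 4, 0 passed and 1 rose with the block, where 3.89% of all genes rose. The part of RNA without poly(A) tails in the differences of HIST1H1 genes was not tested beyond the fit with RN18S1 as a covariate. None of the HIST1H1 genes passed the threshold in that fit, but 0 of all genes passed there between the morulae. None of these genes had passed without the covariate either. There the difference of HIST1H1B went from 1.09 to 0.60 (adjusted p 0.598), that of HIST1H1C from 2.04 to 1.90, that of HIST1H1D from 1.05 to 1.02 and that of HIST1H1A from 0.50 to 0.60. The differences of the polyadenylated H1F0 and H1FX became 1.49 and 1.09.

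**Figure D3:**
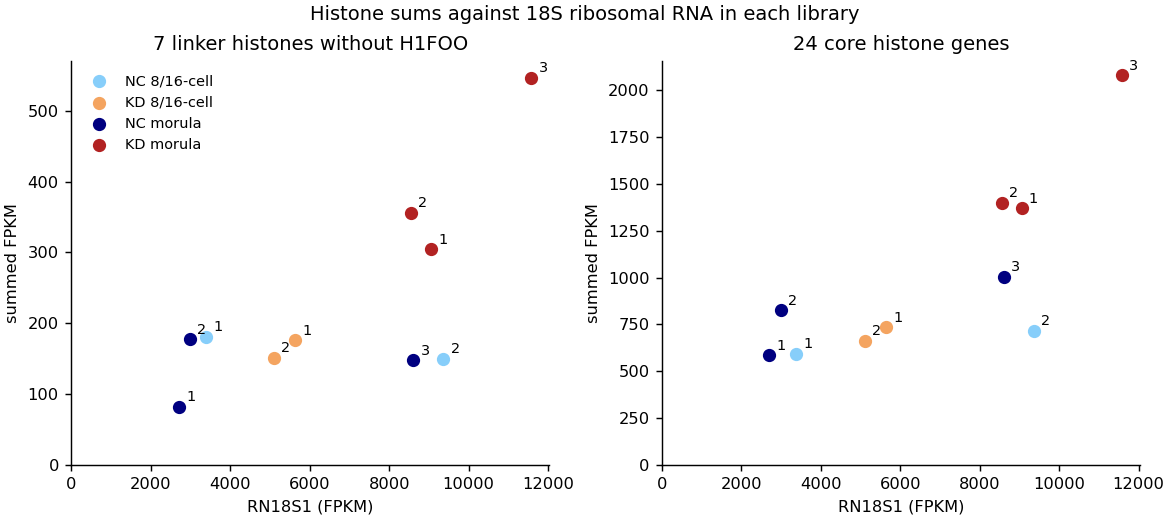
Summed FPKM of the 7 linker histones other than H1FOO (left) and of 24 core histone genes (right) against RN18S1 in FPKM, 1 point per library with its replicate number. At RN18S1 levels of 8553 to 9367 FPKM, knockdown morulae 1 and 2 lie at 304 and 356 FPKM of linker histones, and NC morula 3 and control 8/16-cell embryo library 2 at 147 and 149.6 FPKM. These libraries are named for their like RN18S1 levels, and the sum on the left includes the polyadenylated H1F0 and H1FX.

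Between the stages, the linker histones of control embryos fell or were not told apart. With H1FOO, HIST1H1A (log2 difference -1.51, SE 0.29, adjusted p 0.00429), HIST1H1B (-1.17, SE 0.38, 0.0372), H1FNT (-0.80, SE 0.26, 0.0403) and H1FX (-0.71, SE 0.25, 0.0497) passed, 5 of 8 genes, where 18.2% of all genes passed in that direction by limma. HIST1H1A passed in 21 of 22 alternatives, without NC 8/16-cell replicate 1 being the exception (adjusted p 0.057). HIST1H1B passed in 11 of 21, H1FNT in 12 of 21 and H1FX in 10 of 22, and each lost its call when NC 8/16-cell replicate 1 or 2 was left out (0.075 to 0.222). HIST1H1B also lost it without NC morula replicate 1 or 2 or KD morula replicate 2, H1FNT without NC morula replicate 1 or 3, and H1FX without any 1 of NC morula replicates 1 and 2, KD morula replicate 1 and the knockdown 8/16-cell libraries (0.0542 to 0.116). HIST1H1C (-0.36), HIST1H1D (0.14) and H1F0 (0.38) did not pass.

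In knockdown embryos H1F0 rose and HIST1H1A fell between the stages. H1F0 went from a mean of 22.4 ± 1.51 FPKM (SD, n = 2) to 118 ± 37.0 FPKM (SD, n = 3), a log2 difference of 2.31 (SE 0.37, limma adjusted p 0.00349), and passed in all 22 alternatives; 5.22% of all genes rose in this comparison. HIST1H1A fell by 0.93 on the log2 scale (SE 0.29, adjusted p 0.0476), where 14.8% of all genes fell. It passed in 5 of 22 alternatives, and of the 10 that left out a library it passed only without NC morula replicate 1 or 2 (the others gave 0.0642 to 0.264). HIST1H1C (1.55, adjusted p 0.0514), HIST1H1D (1.40, 0.0678) and H1FX (0.59, 0.114) did not pass, although every knockdown morula lay above both knockdown 8/16-cell libraries, as for 16.6% of all genes, and HIST1H1B (-0.04) and H1FNT (-0.24) overlapped. The control and the knockdown comparison of stages share no library, but each shares libraries with the comparisons of treatments.

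The test of whether the knockdown effect differed between the stages called none of the 8 genes (adjusted p 0.435 to 0.661), beside 0.017% of all genes. At an unadjusted p under 0.05 it held 4, H1FOO (3.41, p 0.00116), H1FX (1.30, p 0.00354), H1F0 (1.93, p 0.00364) and HIST1H1C (1.90, p 0.0213), beside 9.39% of all genes in either direction. When each library was scaled to the same total, the median over all genes in the 8/16-cell comparison of treatments went from 0.01 to -0.32, and there H1FX (-0.34) and HIST1H1C (-0.26) took the opposite sign and lay close to that median.

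FPKM is scaled by gene length, and the 8 genes were set against each other within a library with 1 limit. Messages without a poly(A) tail are captured less well on oligo(dT) beads, so that the 4 HIST1H1 genes are not on the same footing as H1FOO, H1F0 and H1FX, and sums, shares and orders across the 2 kinds describe these libraries and not the message content of the embryo. Their sum was 232 and 160.4 FPKM in the control and 177 and 151 FPKM in the knockdown 8/16-cell libraries. It was 82.1, 178 and 149 FPKM in the control morulae and 304, 356 and 547 FPKM in the knockdown morulae. The 3 knockdown morulae had the highest sums of all 10 libraries.

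H1FOO made up 22.0% and 6.74% of that sum in control and 0.367% and 0.0486% in knockdown 8/16-cell embryos. Its share was 0.358%, 0.590% and 1.45% in control morulae and 0.0201%, 0.0536% and 0.0459% in knockdown morulae. The rest of the sum was led by H1F0, H1FX and HIST1H1C together, with 63.3% and 77.4% in control and 82.5% and 83.9% in knockdown 8/16-cell embryos, 81.6% to 89.0% in control morulae and 88.2% to 92.3% in knockdown morulae. With the 4 HIST1H1 genes left out of the sum, the share of H1FOO was 34.5% and 10.2% in control and 0.689% and 0.0793% in knockdown 8/16-cell embryos, 0.492%, 1.11% and 2.4% in control morulae and at most 0.106% in knockdown morulae. With H1FOO left out, the sums at the 8/16-cell stage were 181 and 149.6 FPKM in control and 176 and 151 FPKM in knockdown libraries.

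**Figure D4:**
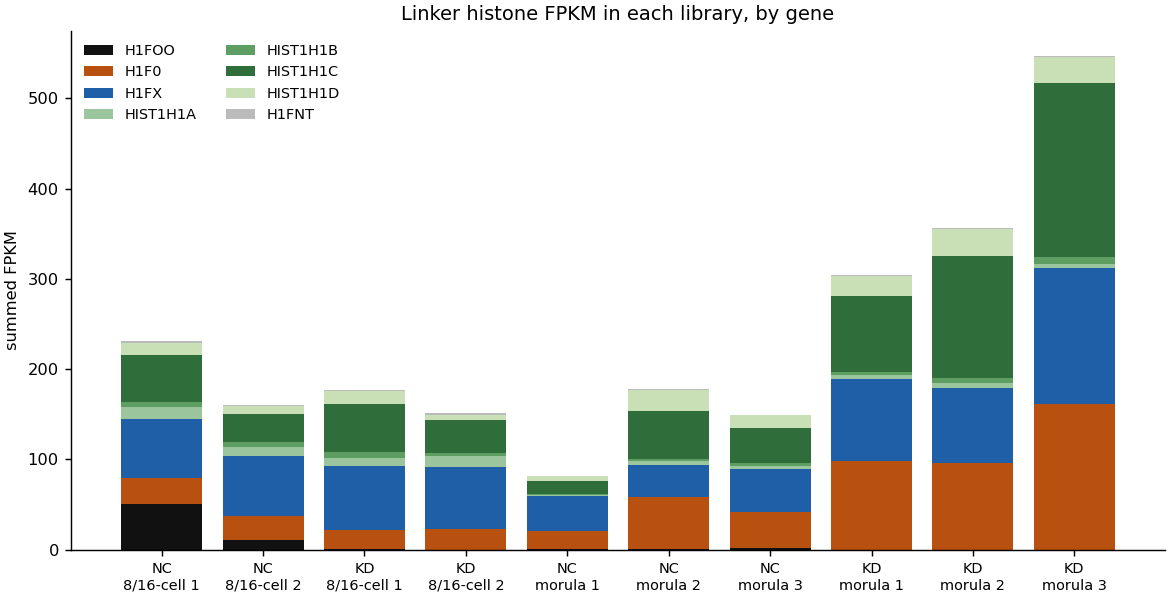
Stacked FPKM of the 8 linker histones in each of the 10 libraries, from 0, with 1 colour per gene. H1FOO (black) takes 22.0% and 6.74% of the column in the control 8/16-cell libraries and at most 1.45% elsewhere, and the knockdown morulae stand at 304, 356 and 547 FPKM.

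The order of the levels changed with stage and treatment. In control 8/16-cell embryos H1FX (66.6 FPKM on average) led, apart from HIST1H1C (41.4), while HIST1H1C, H1FOO (30.8) and H1F0 (27.4) overlapped as neighbours; HIST1H1D (11.3) and HIST1H1A (11.0) followed, then HIST1H1B (5.48) and H1FNT (1.99). In knockdown 8/16-cell embryos the order of the other 7 was the same apart from HIST1H1A (10.4) and HIST1H1D (10.1), which overlapped, and H1FOO (0.361) came last, under both H1FNT libraries. In control morulae H1FX (40.6), H1F0 (39.1), HIST1H1C (35.2) and HIST1H1D (14.4) each overlapped with the next, and HIST1H1A (3.36), HIST1H1B (2.02), H1FOO (1.17) and H1FNT (0.713) formed a lower group. In knockdown morulae HIST1H1C (137), H1F0 (118) and H1FX (109) overlapped at the top, and HIST1H1D (26.8), with HIST1H1B (5.39) and HIST1H1A (4.93) below it, stood apart from them.

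Ratios between 2 linker histones of 1 library do not depend on its scaling. HIST1H1C over HIST1H1A, both replication-dependent, was 4.06 and 3.30 in control and 6.22 and 2.95 in knockdown 8/16-cell embryos, 7.43, 10.7 and 11.9 in control morulae and 19.4, 25.0 and 38.2 in knockdown morulae. The knockdown morulae lay above all other libraries, and the control morulae above all 8/16-cell libraries. H1F0 over H1FX, both polyadenylated, was 0.439 and 0.385 in control and 0.299 and 0.347 in knockdown 8/16-cell embryos, 0.525, 1.66 and 0.812 in control morulae and 1.07, 1.14 and 1.07 in knockdown morulae. Here the stages did not overlap, and the treatments overlapped at the morula stage. These ratios show unequal change and do not show which of their genes changed.

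Core histones, the proteins of the nucleosome itself, were set beside the linker histones. The sum of 24 replication-dependent core histone genes was 594 and 717 FPKM in control and 734 and 663 FPKM in knockdown 8/16-cell embryos, 586, 826 and 1004 FPKM in control morulae and 1371, 1400.2 and 2082 FPKM in knockdown morulae. Only symbols on 1 line that begin with HIST entered this core sum, and the 20 core genes tested included no H4 gene. The gene under the symbol H4, named below for its likeness to H1F0, was left out by this rule. HIST2H2AA4 alone held 159 (NC 8/16-cell replicate 1) to 767 FPKM (KD morula replicate 3). The linker sum over this partial core sum was 0.390 and 0.224 in control and 0.241 and 0.229 in knockdown 8/16-cell embryos. It was 0.140, 0.216 and 0.149 in control and 0.222, 0.254 and 0.263 in knockdown morulae, all 3 knockdown values above the control values. Of 20 core genes tested at the morula stage 1 rose by limma, HIST2H2BE (log2 difference 0.94, adjusted p 0.0486), and 0 fell, where 0.145% of all genes rose. With the block 11 rose, where 3.89% of all genes did, and the median difference was 0.94.

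Genes around the linker histones were counted by lists. For 13 tested genes listed as histone chaperones, proteins that carry histones to and from DNA, the median difference between the morulae was -0.67. Not all of them are specific to linker histones. Of the 13, 10 were negative, beside 57.9% of all genes, and 8 fell with the block, where 8% of all genes fell. By limma 1 fell in knockdown morulae and 0 rose, where 0.553% of all genes fell. It was NASP, a chaperone of H1 and of H3 with H4, at 88.7 ± 10.7 FPKM in control and 40.3 ± 6.13 FPKM in knockdown morulae (SD, n = 3; log2 difference -1.12, SE 0.18, limma adjusted p 0.0374). NASP also rose between the stages in control embryos (0.90, adjusted p 0.00898) and fell in knockdown embryos (-0.67, 0.0426). ANP32E (-1.13), NUCKS1 (-0.72) and ANP32B (-0.67) had adjusted p-values of 0.0648 to 0.0825. At the 8/16-cell stage 0 of the 13 passed (median 0.07).

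Of 12 proteins that compete with linker histones for the nucleosome, mostly of the HMG families, all had a negative difference in knockdown morulae (median -0.56). Over all genes tested, 57.9% had a negative difference, 0.553% fell by limma and 8% fell with the block. Of the 12, 1 fell (6 with the block). It was HMGN1, a nucleosome-binding HMG protein, at 49.0 ± 8.85 FPKM in control and 22.1 ± 5.50 FPKM in knockdown morulae (SD, n = 3; log2 difference -1.13, SE 0.21, adjusted p 0.0427). HMGB1 (-1.0), PARP1 (-0.91) and HMGB2 (-0.79) missed the threshold, with adjusted p-values of 0.0562 to 0.0724. In the difference of effects between the stages 0 of the 12 passed.

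Of 16 enzymes and readers of linker histone marks 1 fell in knockdown morulae, where 0.553% of all genes did, and the median was -0.08. It was the heterochromatin protein CBX3, which went from 58.1 ± 8.09 to 28.3 ± 7.65 FPKM (SD, n = 3, log2 difference -1.03, limma adjusted p 0.0468). Genes of histone gene transcription (12 tested, median -0.09) and of histone message 3′ processing and decay (26 tested, median -0.02) held none that passed. With the block NFYA rose (0.53, adjusted p 0.0343) and NFYB fell (-0.59, 0.0343), both subunits of 1 CCAAT-binding factor. CPSF4, a cleavage factor, also rose (0.56, 0.0477), and with the block 3.89% of all genes rose and 8% fell. Of 30 S phase genes 0 passed, 9 fell with the block, where 8% of all genes did, and 24 had a negative difference, as did 57.9% of all genes. Their median was -0.29, beside -0.08 over all genes. Those with the smallest p-values included RRM1 (-0.64), MCM6 (-0.62) and PRIM1 (-0.84), with adjusted p-values of 0.0724 to 0.0917.

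**Figure D5:**
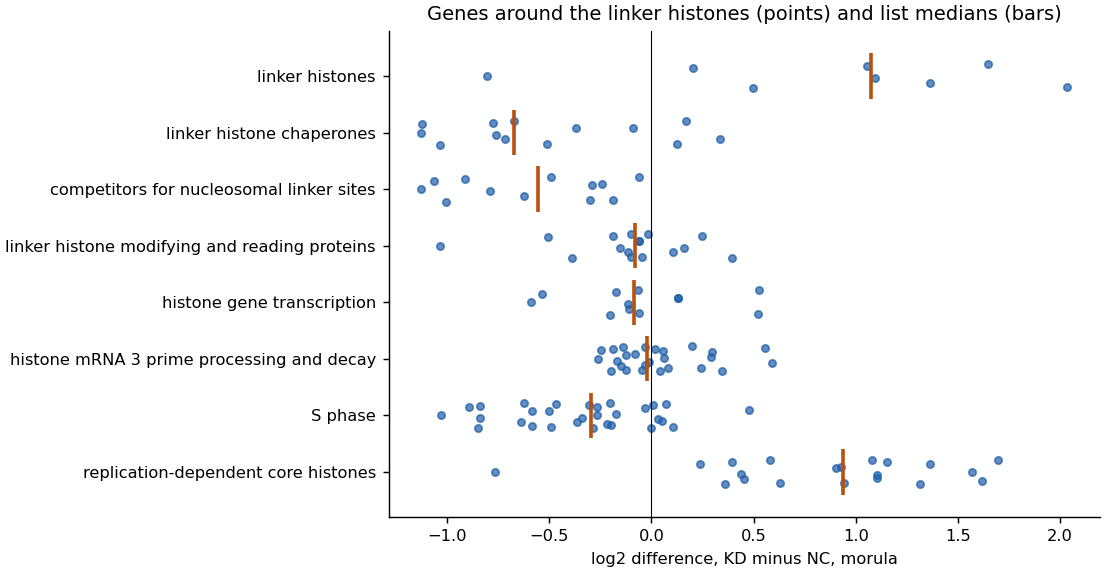
Log2 differences between knockdown and control morulae for each tested gene of 8 lists (points, spread vertically for legibility) and the list medians (bars). The medians of linker histones (1.07 over all 8 genes) and core histones (0.94) lie above 0. Those of the listed chaperones (-0.67), not all specific to linker histones, and of competitors (-0.56) lie below it. Those of histone gene transcription (-0.09) and 3′ processing (-0.02) lie near it.

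Markers of the embryo and of other cells were measured alongside. Of the 10 embryo markers 0 passed between the treatments at either stage, with medians of -0.21 at the 8/16-cell and -0.44 at the morula stage. With the block 1 rose and 3 fell at the morula stage, where 3.89% of all genes rose and 8% fell. NANOG rose, from 13.2 ± 6.27 to 34.1 ± 7.52 FPKM (SD, n = 3; log2 difference 1.39, limma adjusted p 0.0724, blocked 0.00506). CDX2 fell, from 9.17 ± 2.83 to 1.82 ± 0.559 FPKM (SD, n = 3; -1.83, limma adjusted p 0.0559, blocked 0.0151). GATA3 (-1.32, limma adjusted p 0.103, blocked 0.0335) and POU5F1 (-0.60, 0.264, 0.0329) also fell. Of 27 oocyte transcripts tested, H1FOO among them, 21 fell and 1 rose between the stages in control embryos (median -2.61). Of all genes tested, 18.2% fell there. In knockdown embryos, where 14.8% of all genes fell and 5.22% rose, 23 of the 27 fell and 1 rose (median -1.92). Their sums were 659.5 to 1053 FPKM in control and 613 to 751 FPKM in knockdown 8/16-cell libraries, 154 to 194 FPKM in control and 153 to 163 FPKM in knockdown morulae. Between the treatments 0 of the 27 passed at either stage, with medians of -0.27 at the 8/16-cell stage and 0.20 at the morula stage. H1FOO differed between the treatments at the 8/16-cell stage by -4.22, beside the median of -0.27. Between the morulae 20 of the 27 were positive and 7 negative, beside 42% positive over all genes. With the block 2 rose and 1 fell, where 3.89% of all genes rose and 8% fell. Those that rose were MOS (means of 0.892 in control and 4.67 FPKM in knockdown morulae, blocked limma adjusted p 0.0485) and KHDC3L (3.60 and 6.33 FPKM, 0.0305).

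Cumulus and granulosa cell markers summed to 101 to 103 FPKM in control and 152 to 157 FPKM in knockdown 8/16-cell libraries. They summed to 73.7 to 90.2 FPKM in control and 67.3 to 121 FPKM in knockdown morulae. Much of the morula sums was SERPINE2, which had a negative difference. It held 75.8, 50.1 and 45.0 FPKM in the control and 45.9, 23.4 and 35.0 FPKM in the knockdown morulae. Of 13 tested genes 10 were positive between the morulae, beside 42% of all genes, and 0 passed. With the block, where 3.89% of all genes rose and 8% fell, 3 of the 13 rose and 1 fell. Among these CYP11A1, an enzyme of steroid synthesis, stood at 7.42 ± 0.601 and 23.0 ± 8.70 FPKM in control and knockdown 8/16-cell libraries (SD, n = 2) and at 2.35 ± 1.93 and 8.51 ± 6.58 FPKM in the morulae (SD, n = 3; limma adjusted p 0.207, blocked 0.0063). VIM, an intermediate filament protein, stood at 18.4 ± 2.76 and 36.7 ± 6.79 FPKM (SD, n = 2) and at 3.72 ± 2.92 and 19.2 ± 21.2 FPKM (SD, n = 3; limma adjusted p 0.212, blocked 0.00881). COL1A1 also rose with the block (log2 difference 0.77, adjusted p 0.046), and SERPINE2 fell (-0.71, 0.0254). FSHR, a defining receptor, was at 0 throughout. Sperm and testis markers summed to 66.2 to 131 FPKM over all libraries, with PGK2 at 0 and 5 of 7 tested genes positive between the morulae. SYCP3 alone held 40.2 to 111 FPKM. Blood and immune markers summed to 150.0 to 348 FPKM, with HBA alone at 94.8 to 239 FPKM and 5 of 5 tested genes positive. Over all genes 42% were positive, and 0 genes of either list rose at the morula stage. With the block ODF2, of the sperm and testis list, fell (-0.75, limma adjusted p 0.0166), where 8% of all genes did. The part of such cells in the linker histone differences was not tested.

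The genes most like 4 of the linker histones across the 10 libraries were found by Pearson's r of log2(FPKM + 1) among the 7709 genes averaging 5 FPKM or more. The libraries share stage, treatment and library composition, and so these are descriptions. For H1FOO they were VPS37B (r = 0.923), MEX3B (0.893), DAXX (0.881), AGPAT5 (0.862) and DTL (0.860). VPS37B stood at 31.5 and 23.0 FPKM in the control 8/16-cell libraries and at 13.3 to 18.5 FPKM in the others. By Spearman's rank correlation only AGPAT5 of these 5 was again among the 5 highest.

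H1F0 was most like the core histone genes HIST1H2BN (r = 0.986) and HIST2H2BE (0.951), followed by LOC104975683 (0.940), H4 (0.919) and LOC100295221 (0.914). HIST1H2BN held 12.8, 37.1 and 31.7 FPKM in the control and 61.9, 67.9 and 103 FPKM in the knockdown morulae, low in NC replicate 1 and high in KD replicate 3 as H1F0 was. HIST1H1C was most like LOC616868 (0.972), PLK2 (0.971), LOC100295221 (0.945), LOC100298356 (0.897) and HIST1H2BN (0.893). H1FX had VASN (0.927), GALNT16 (0.920), LOC104975679 (0.911), ATXN2 (0.894) and ZNF296 (0.889) as its nearest genes, none of them among those of H1F0 or HIST1H1C.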

How the data were processed

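RNA of bovine embryos injected as zygotes with H1FOO or negative control small interfering RNA was selected on oligo(dT) beads and sequenced, per the labels' protocols, which do not say whether strand was kept; reads of overlapping antisense genes cannot then be told apart. The submitters' processing notes name the tools Trimmomatic, HISAT2, featureCounts and Cufflinks and the builds ARS-UCD1.2 and bosTau9, without versions or roles. The authors deposited FPKM (fragments relative to gene length and library total) in 1 table of 39911 lines and 10 libraries; depth is unknown.

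Of 28781 symbols, 81 on several lines (11211 lines) were left out of the tests; the morula columns combine their loci and the 8/16-cell columns repeat 1 value. The 11761 genes whose mean reached 1 FPKM were fitted as log2(FPKM + 1) with limma 3.58.1 in R 4.3.3 (limma-trend, 4 group means on all libraries, 6 residual and 4.63 prior degrees of freedom), with two-sided p-values, Benjamini-Hochberg adjustment across these genes and a threshold of 0.05. A fold on this scale understates the change of low genes. Simulated data were used to test the scripts.

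The genes named were the 8 linker histones, RN18S1, up to 4 genes per list by smallest p at the morula stage (those described), and the 5 genes most like H1FOO, H1F0, H1FX and HIST1H1C; HIST1H1E, HILS1, FSHR and PGK2 were added after their values were seen. The members and lists were chosen with earlier results of these data known. In RefSeq's ARS-UCD2.0 table, used for names only, 4 of the 8 symbols matched.

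Treatments share replicate numbers within a stage. Across genes, the deviations of a control and a knockdown morula library with the same number had r of 0.370, 0.325 and 0.312, so the numbers were taken to pair them; at the 8/16-cell stage r was 0.0558. Alternatives were pseudocounts of 0.1 and 0.5, no filter, a mean of at least 5 FPKM, 3 scalings, limma without trend or robust, the compared groups alone, RN18S1 as covariate, the replicate block and leaving out each library.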

Additional observations from a re-analysis of the deposited data

Results flagged for a closer look

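The estimates for H1F0 between KD and NC embryos had opposite signs at the 2 stages, but neither difference passed. At the 8/16-cell stage the log2 difference was -0.28, with a 95% interval from -1.17 to 0.61. It was 1.65 at the morula stage (limma adjusted p 0.056). Both KD libraries lay under both NC libraries at the 8/16-cell stage (21.3 and 23.4 against 28.8 and 26.0 FPKM). The groups did not overlap there, in either direction, for 33.2% of all genes. All 3 KD libraries lay above all 3 NC libraries at the morula stage (98.1, 95.5 and 161 against 20.2, 57.9 and 39.3 FPKM). That held for 8.44% of all genes. The difference between the 2 effects was 1.93 on the log2 scale (SE 0.52) and did not pass in limma's test over all genes (adjusted p 0.435, and 0.0947 with the replicate block).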

How the results depend on the processing

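The linker histones past the threshold between KD and NC morulae were 1 as reported, 0 with no filter, with libraries rescaled to an equal sum, with the morulae fitted alone and with RN18S1 as a covariate, 3 at a mean of at least 5 FPKM, 2 with robust limma, 5 with the replicate block, and 0 to 3 with 1 library left out. All genes past it there were 82 as reported, 6, 3, 0 and 0 in the first 4 of these, 139 at a mean of at least 5 FPKM, 181 with robust limma, 1398 with the replicate block, and 0 to 527 with 1 library left out. At the 8/16-cell stage 0 linker histones became 1, H1FOO, with the equal sum and with the replicate block (the numbers were not found to pair the libraries of this stage), and 0 to 1 with 1 library left out; the 2 genes in all became 11 with no filter, 1 with the groups alone, 4 with RN18S1 and 2 to 9 with 1 library left out. For the difference between the stages' effects, 0 linker histones became 1 with the replicate block, and the 2 genes became 4 with RN18S1, 32 with the replicate block and 2 to 6 with 1 library left out.

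Between the stages in NC embryos, 5 linker histones became 2 with no filter and with median-of-ratios scaling, 3 at a mean of at least 5 FPKM (where HIST1H1B and H1FNT are not tested), with the equal sum, with quantile normalization and with RN18S1, and 1 to 5 with 1 library left out; the 3626 genes became 1406 to 3657. In KD embryos, 2 became 1 with pseudocounts of 0.1 and 0.5, no filter, limma without the trend and RN18S1, 4 with the equal sum and with the groups alone, and 1 to 4 with 1 library left out; the 2355 genes became 1329 with the equal sum and 693 to 2698 with 1 library left out. Apart from calls named here or beside the results, the replicate block changed none of the linker histones.

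Changes of sign concerned differences that did not pass. At the 8/16-cell stage H1FX (-0.34) and HIST1H1C (-0.26) reversed with the equal sum, and with 1 library left out HIST1H1A ran from -0.32 to 0.15, HIST1H1B from -0.35 to 0.27, HIST1H1C from -0.24 to 0.51 and HIST1H1D from -0.71 to 0.30. Between the stages HIST1H1C (-0.73 to 0.17) and HIST1H1D (-0.31 to 0.69) reversed in NC and H1FOO (-0.50 to 0.12) and HIST1H1B (-0.35 to 0.27) in KD embryos with 1 library left out, HIST1H1B also with the equal sum (0.36), quantile normalization (0.15) and median-of-ratios scaling (0.13), which moved the median of all genes there from -0.18 to 0.21, -0.01 and -0.01. The share of H1FOO in KD morulae was 0.0727% with the HIST1H1 genes left out of the sum. The cause of these changes was not tested. A group left with 1 library was assumed to vary like the others, and FPKM without counts limits what can be said of H1FOO below about 1 FPKM.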
